A study of Homo sapiens and Homo sapiens
Mus musculus and Mus musculus with 9 samples.

Results

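A set of 8 genes that androgens are known to regulate in prostate cells (KLK2, KLK3, KLK4, TMPRSS2, FKBP5, SLC45A3, FOLH1 and STEAP2) was described in the RNA-Seq of C4-2B prostate cancer cells. All 8 were found among the 41713 genes of the deposited table, 7 by their symbol and KLK2, whose symbol was blank, by its Ensembl identifier. Stranded mRNA was sequenced from C4-2B cells kept alone (3 libraries), from C4-2B mixed 1 to 30 with MC3T3-E1 (3 libraries) and from MC3T3-E1 kept alone (3 libraries, not used here), all labelled WT and all grown in alpha-MEM with serum. C4-2B is a human line derived from a tumour in bone and MC3T3-E1 a line of mouse bone-forming precursors, so each species stands for 1 line, and human and mouse RNA were sequenced together in the mixture. The table gives 1 mean per gene over the 6 libraries with human cells in each of 3 pipelines that separate human from mouse reads (Xenome, XenofilteR and Kallisto), so the members are described as levels, and the co-culture was not compared with C4-2B alone here.

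Androgens act through a nuclear receptor that binds DNA as a dimer, and they switch on a set of genes that make up much of the secretory program of the prostate. FOLH1 is an exception among the 8 genes, since androgens are known to repress it. Prostate cancer cells that grow with little androgen, as C4-2B cells do, often keep these genes on. Several products of the 8 genes are used as serum markers, imaging targets or readouts of the androgen response.

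The level is the mean of the read counts of the libraries, each divided by its size factor, the scaling of DESeq2 for library depth. All 8 genes were abundant in each pipeline. Their levels lay between 4603 and 51038 with Xenome, an 11.1-fold range, and the lowest of them, TMPRSS2, still stood at place 2216 of 17827 protein-coding genes with a level. KLK3, STEAP2 and FOLH1 made up 78.4% of the summed level of the 8 genes, and the 8 genes together 0.431% of the sum over all protein-coding genes. Where the pipelines differed most was in FOLH1, which was 26.8% higher with Kallisto than with Xenome, and in KLK3 and KLK2, where Kallisto was lower.

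No level of a single library was used, so the spread between libraries is unknown and no test between genes or groups was run. Counting error alone was estimated from the steps of the lowest Kallisto levels by a rule that was set after those levels had been seen. By that rule 1 read added between 0.0285 and 0.0343 to the mean in 3 libraries and between 0.391 and 1.54 in the other 3, a range of 54 times in usable human depth. The steps were not assigned to groups, and those of Kallisto were used for all pipelines. If a gene stood at the same level in all 6 libraries, the counting error of its mean was 49.3 for TMPRSS2 (1.07% of its level) and 164 for KLK3 (0.322%) with Xenome. A gene whose level differs between the libraries has another counting error, and the spread between cultures is not part of these values.

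The secreted serine proteases come first. KLK3 encodes prostate-specific antigen, the protease measured in serum to follow prostate cancer, and lies on chromosome 19 of GRCh38 from 50854915 to 50860764. Xenome gave a level of 51038, XenofilteR one of 51208 and Kallisto one of 44909, at place 40 among protein-coding genes with Xenome. KLK2, whose protease can activate the precursor of prostate-specific antigen, follows on the same strand from 50861568 to 50880567. For KLK2 Xenome gave a level of 7991, XenofilteR one of 8005 and Kallisto one of 7258. KLK4, a protease known from prostate and from the forming tooth enamel, lies from 50906352 to 50910738. Xenome gave a level of 6172, XenofilteR one of 6036 and Kallisto one of 6197. KLK3 was thus 6.39 times the level of KLK2 and 8.27 times that of KLK4 with Xenome, and 6.19 and 7.25 times with Kallisto. These ratios are not divided by transcript length. Per kilobase of the canonical transcript KLK3 was 12.3 times KLK2 with Xenome.

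KLK3 and KLK2 are close copies of each other, and the sequences before their start sites are shown because they hold the promoter element through which androgens are known to act on KLK3. Windows at RefSeq start sites on GRCh38.p14 were matched by symbol for 6 of the 8 genes, and those of TMPRSS2 and FOLH1 were not analysed here. The 250 bases before the start of KLK3 (chr19:50854665-50854914, plus strand) and of KLK2 (chr19:50873189-50873438, plus strand) are given 5′ to 3′, with the 15 bases in capitals that begin with the androgen response motif AGAACA in KLK3 and the bases aligned with them in KLK2. The RefSeq start of KLK2 lies inside the gene as the deposited table bounds it.
KLK3: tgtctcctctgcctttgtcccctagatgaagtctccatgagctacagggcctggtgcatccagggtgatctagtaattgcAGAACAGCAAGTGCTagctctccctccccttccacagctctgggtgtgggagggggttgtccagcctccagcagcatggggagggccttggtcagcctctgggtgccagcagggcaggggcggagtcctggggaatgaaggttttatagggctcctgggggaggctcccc
KLK2: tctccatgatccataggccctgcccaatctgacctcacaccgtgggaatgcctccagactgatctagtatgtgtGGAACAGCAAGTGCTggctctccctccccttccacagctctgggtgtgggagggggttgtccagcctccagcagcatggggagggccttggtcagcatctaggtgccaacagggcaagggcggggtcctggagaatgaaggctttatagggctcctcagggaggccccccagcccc
Of 241 aligned bases of these windows, 205 were identical (85.1%). The capitals lie from position -170 to -156 of KLK3 and from -176 to -162 of KLK2, counted from the start site. Counted from 1 at the 5′ end of the capitals, the KLK2 site differs from that of KLK3 by A1G and by no other substitution. The motif AGAACA was searched on both strands and was found in the windows of 12.4% of all 35116 start sites. Among the members it was found in the window of KLK3 and in none of the windows of KLK2, KLK4, FKBP5, SLC45A3 and STEAP2. The palindrome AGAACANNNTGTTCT, searched on both strands and overlapping the first motif, was found in 1 of the 35116 windows and in no member's window. The letters TTTATA, searched on both strands and resembling a TATA box, were in 10.7% of all windows and in those of KLK2, KLK3 and STEAP2. These are matches of letters in a short window, and no binding was measured.

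TMPRSS2 encodes a serine protease anchored in the cell membrane, and its promoter is known for driving ERG in many prostate cancers after a fusion. It lies on chromosome 21 from 41464305 to 41531116. Xenome gave a level of 4603, XenofilteR one of 4610 and Kallisto one of 4575, the lowest of the 8 genes in each pipeline.

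FKBP5 encodes a co-chaperone of HSP90 that binds steroid receptor complexes and is itself induced by androgens and glucocorticoids. It lies on chromosome 6 from 35573585 to 35728583. For FKBP5 Xenome gave a level of 13840, XenofilteR one of 13900 and Kallisto one of 14031. By level it took place 4 of the 8 genes with Xenome, 73.2% above KLK2, and per kilobase of the canonical transcript below KLK4.

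The last 3 genes encode proteins of the cell membrane. SLC45A3, known as prostein, is a transporter-like protein of prostate cells, with its gene on chromosome 1 from 205657851 to 205680509. Xenome gave a level of 4792, XenofilteR one of 4871 and Kallisto one of 4829. STEAP2 is a metal reductase of the membrane, with its gene on chromosome 7 from 90167590 to 90238137. For STEAP2 Xenome gave a level of 46842, XenofilteR one of 47016 and Kallisto one of 46924, and neither of the latter differed from Xenome by more than 0.372%. FOLH1 encodes prostate-specific membrane antigen, a carboxypeptidase used as a target for imaging and radioligands, with its gene on chromosome 11 from 49145092 to 49208638. For FOLH1 Xenome gave a level of 37664, XenofilteR one of 39022 and Kallisto one of 47752.

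**Figure D1:**
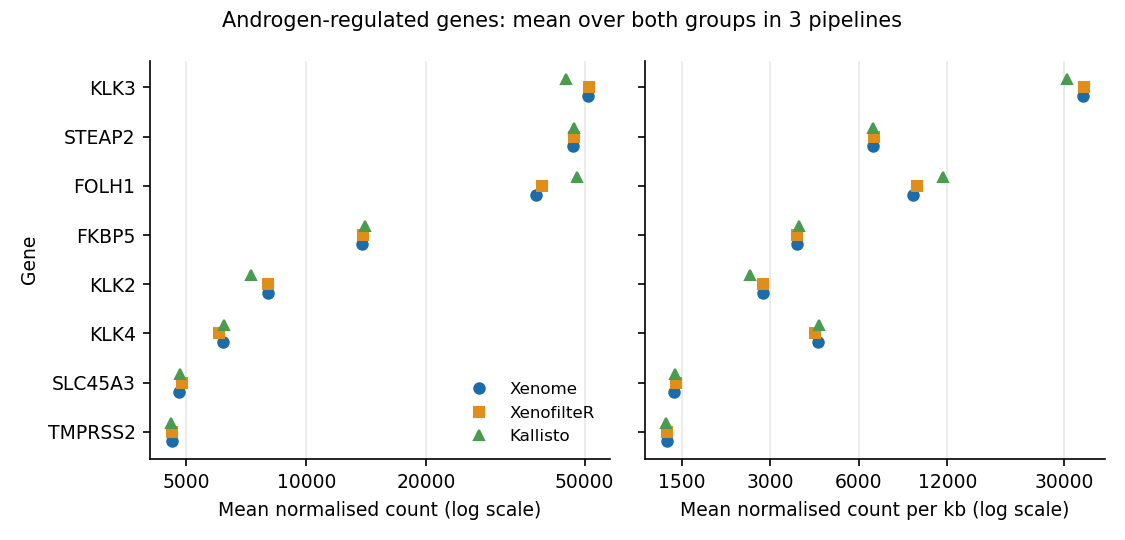
Mean normalised count of each gene over the 6 libraries with human cells (left, log axis) and the same divided by the length of the canonical transcript in kilobases (right, log axis), with 1 point per pipeline and no error bars, since the spread between libraries is unknown. KLK3, STEAP2 and FOLH1 lie apart at 37664 or more with Xenome, and per kilobase of the canonical transcript KLK3 is highest at 34862.

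Long transcripts collect more reads, so the comparisons of levels above also reflect length, and levels of different genes are compared per length here. Divided by the length of the canonical transcript in GENCODE release 44, the order with Xenome was KLK3 (34862 per kilobase), FOLH1 (9164), STEAP2 (6707), KLK4 (4358), FKBP5 (3691), KLK2 (2825), SLC45A3 (1413) and TMPRSS2 (1334). STEAP2, with a canonical transcript of 6984 bases, moved from the second place by level to the third per kilobase. KLK3, with 1464 bases, stood 12.3 times above KLK2 per kilobase on this length. KLK3 was highest per kilobase on both lengths in each pipeline, but the size of its lead depended on the length used. With all annotated exons joined (4639 bases for KLK3), KLK3 had 11002 and FOLH1 7060 per kilobase with Xenome, and 9681 and 8951 with Kallisto. On that length with Xenome STEAP2 had 5372, KLK4 3080 and TMPRSS2 699. FKBP5, SLC45A3 and KLK2 then lay close together at 1302, 1277 and 1258. With Xenome SLC45A3 and TMPRSS2 were the closest neighbours on the scale of levels. Their difference was 190 (4.13%), against a counting error of 70.5 for that difference. The spread between libraries could be larger than this difference, so the order of these 2 genes is not established. KLK3 stood 8.96% above STEAP2 with Xenome. With Kallisto the order by level at the top was FOLH1, STEAP2 and KLK3. There FOLH1 stood 1.76% above STEAP2, and STEAP2 4.49% above KLK3. The order of these top genes by level differs between pipelines and is not established either. All levels are pooled over both groups, so the order within C4-2B alone or within the co-culture is unknown.

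The difference between pipelines was set against all protein-coding genes with a level of at least 4603, that of TMPRSS2 with Xenome, in both pipelines. TMPRSS2 itself, at 4575 with Kallisto, is not among the genes of the Kallisto background. The pipelines read the same libraries, and their differences were not tested. Across these 2193 genes the log2 ratio of Kallisto to Xenome had a median of 0.03, with the central 95% between -0.06 and 0.72. For KLK4, TMPRSS2, FKBP5, SLC45A3 and STEAP2 the log2 ratio lay between -0.01 and 0.02. For KLK3 it was -0.18, a difference of -12%, and 6 of the 2193 genes had a lower ratio. For KLK2 it was -0.14, a difference of -9.18%, and 14 genes had a lower ratio. For FOLH1 it was 0.34, and 184 genes, or 8.39%, had a higher one. Against these genes KLK3 and KLK2 lay below the central 95% and FOLH1 within it. Against the 11580 protein-coding genes with a level of at least 50 in both pipelines, whose central 95% ran from -0.23 to 1.99, all 8 genes lay within it, with 3.21% of genes below KLK3 and 4.59% below KLK2.

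**Figure D2:**
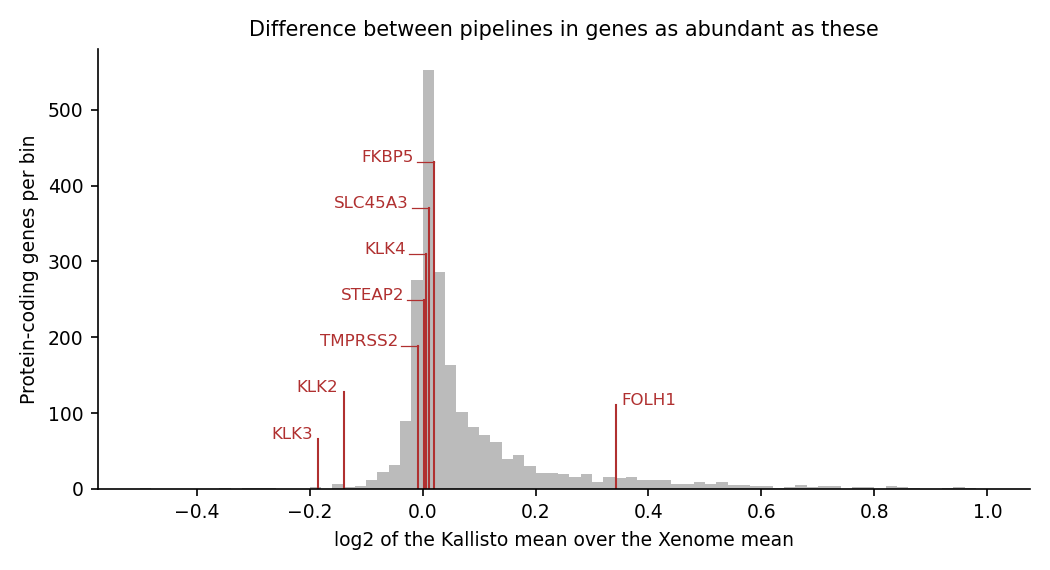
Histogram of the log2 ratio of the Kallisto to the Xenome level (x axis) over protein-coding genes with a level of at least 4603 in both pipelines, with genes per bin on the y axis and a red line at the value of each of the 8 genes, whose height has no meaning, and with 36 genes outside the axis range left out. The other 5 genes lie near 0, KLK3 at -0.18 and KLK2 at -0.14 lie in the sparse lower tail, and FOLH1 lies at 0.34.

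Across 2206 genes of this abundance the central 95% of the log2 ratio of XenofilteR to Xenome lay between -0.02 and 0.18. KLK4 differed by -2.19% with XenofilteR, below that range, and 27 of the 2206 genes had a lower ratio. FOLH1 was 3.61% and SLC45A3 1.65% higher, and the remaining 5 genes differed by between 0.152% and 0.434%.

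The sequence that each gene shares with others was measured from the GENCODE transcripts, since Kallisto divides reads that fit several transcripts between them. All distinct 31-base sequences of a gene's transcripts were listed, and the measure was the percent of them that also occur in transcripts of another human gene, or on either strand of mouse transcripts. FOLH1 shared 28% with other human genes, against 3.59% for STEAP2, 2.69% for FKBP5, 1.91% for KLK2, 1.22% for KLK3 and 0.885% for KLK4. TMPRSS2 and SLC45A3 shared none of 6901 and 3721 sequences. Of the 1542 shared sequences of FOLH1, 1522 were in transcripts of FOLH1B, a transcribed pseudogene that lies on the same chromosome from 89639237 to 89698718. FOLH1B had a level of 290 with Xenome and 285 with XenofilteR. It had no Kallisto level, like KLKP1 of the kallikrein cluster, and 19939 of the 20359 genes with a Kallisto level are protein-coding. The longest run of the FOLH1 coding sequence found unchanged in a FOLH1B transcript was 414 bases long and spanned exons 13 to 16. Its first 90 bases, from exons 13 and 14 (within chr11:49157971-49164721, GRCh38, minus strand, introns left out), are shown as the sequence that both genes hold.
FOLH1: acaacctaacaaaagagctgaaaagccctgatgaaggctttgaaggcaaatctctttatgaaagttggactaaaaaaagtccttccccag

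KLK3 and KLK2 shared 60 of their 31-base sequences, although 671 of the 786 bases of their coding sequences (85.4%) are the same. The longest run shared by both coding sequences was 60 bases in exon 3 of each gene, at chr19:50858242-50858301 in KLK3 and chr19:50876685-50876744 in KLK2 (GRCh38, plus strand).
KLK3 and KLK2: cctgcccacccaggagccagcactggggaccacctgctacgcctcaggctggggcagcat
Whether shared sequence has a part in the pipeline differences of FOLH1, KLK3 and KLK2 was not tested.

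**Figure D3:**
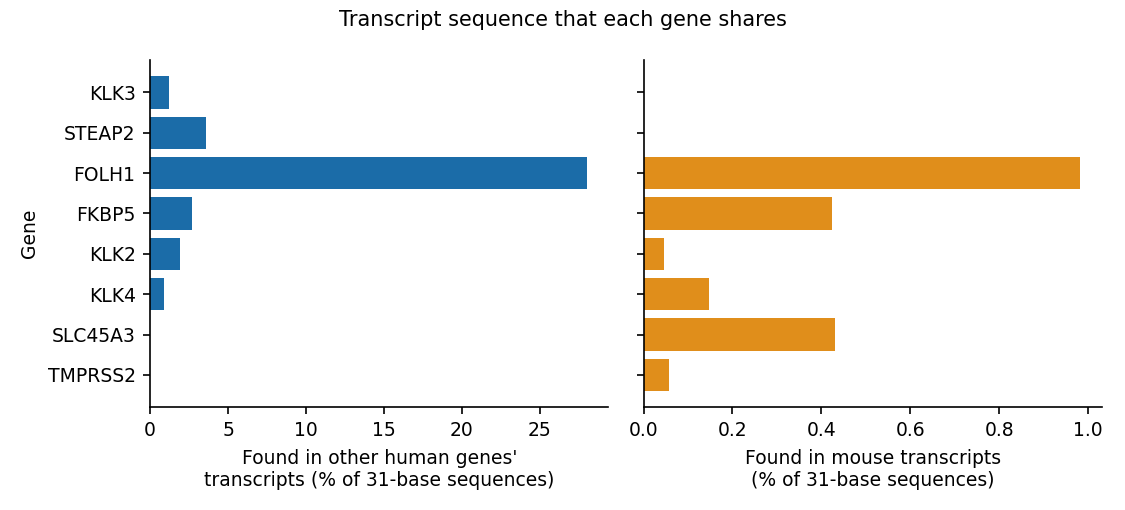
Percent of the distinct 31-base transcript sequences of each gene that occur in transcripts of other human genes (left) and in mouse transcripts (right), 1 bar per gene, with axes from 0. FOLH1 stands apart at 28% on the left and is highest on the right at 0.982%.

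Sequence shared with the mouse was low for all 8 genes. FOLH1 shared 0.982% of its sequences with mouse transcripts, and SLC45A3 shared 0.43% and FKBP5 0.423%, in each case most with its mouse counterpart, while KLK4, TMPRSS2 and KLK2 shared 0.148%, 0.058% and 0.0451%. KLK3 and STEAP2 shared none of 4903 and 8822 sequences.

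KLK2, KLK3 and KLK4 belong to a cluster of kallikrein genes on chromosome 19, and the other members of that cluster were far less abundant. Of the 12 other kallikreins in a list of related genes, 9 had a level with Xenome, between 0.0656 for KLK5 and 302 for KLK15, the neighbour on the other side of KLK3. The median of the 9 was 0.61, and 7 were below 50. KLK8, KLK9 and KLK13 had no level with Xenome and were listed at 0 with Kallisto. KLKP1, a transcribed pseudogene between KLK2 and KLK4, had a level of 118 with Xenome. The abundant kallikreins thus lay within 55.8 kilobases from the start of KLK3, with 1 pseudogene among them.

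**Figure D4:**
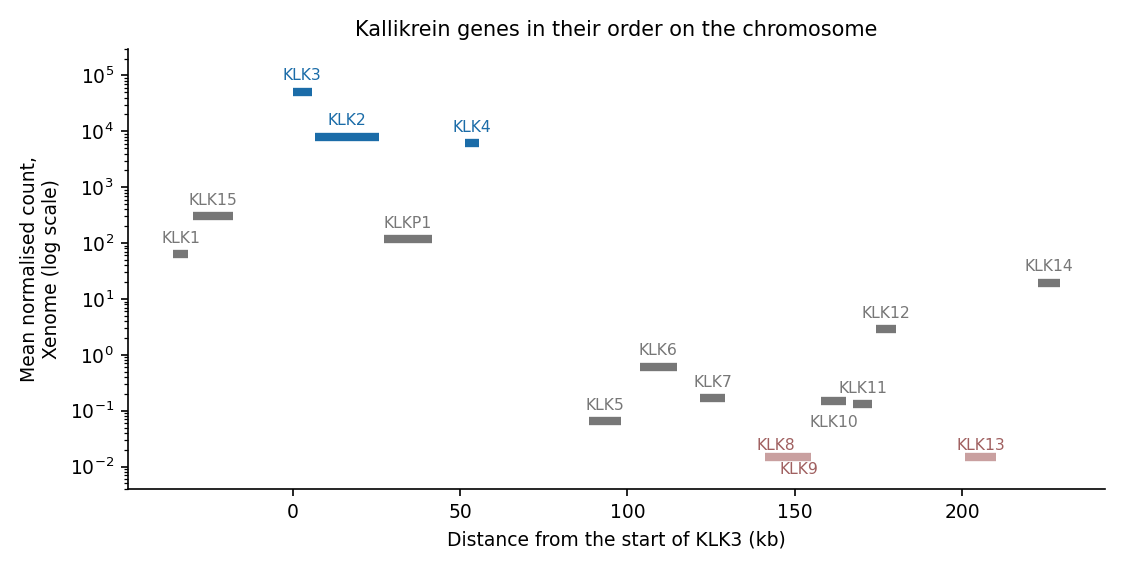
Kallikrein genes drawn as bars from their start to their end in kilobases from the start of KLK3 (x axis) at their mean normalised count with Xenome (y axis, log scale), with the members in blue, other genes in grey and genes with no level in pink at the foot. KLK3, KLK2 and KLK4 stand at 6172 or more, and every other gene stands at 302 or less.

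The other 20 genes of the list are further genes linked to androgens in the prostate and relatives of the members. With Xenome 14 of the 20 had a level of at least 1000. The share of all protein-coding genes at that level is not given here, so the 14 are not set against it. FOXA1, a factor that opens chromatin in prostate cells, had 16922, and HOXB13, a prostate homeobox factor, had 10532. STEAP1, a neighbour of STEAP2 on chromosome 7 that shares 34.5% of its 31-base sequences with STEAP1B, had 13510, while STEAP4 had 63.2. FKBP4, a relative of FKBP5 that also binds HSP90, had 25637. TMPRSS3 and TMPRSS4, relatives of TMPRSS2, had 1.49 and 50.8. The androgen-linked genes ACP3, TSC22D3 and UGT2B17 were also below 1000 with Xenome, at 524, 652 and 766.

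Markers of epithelial cells and of osteoblasts were read in the same human columns. MC3T3-E1 is a mouse line, and the pipelines set mouse reads apart. Low levels of human osteoblast genes therefore do not check for osteoblasts in the mixture. The epithelial genes KRT8, KRT18, EPCAM and CDH1 had levels between 5200 and 25672 with Xenome. Of 10 osteoblast markers, 7 were below 50 with Xenome and 5 with XenofilteR and with Kallisto, and their median was 24.1, 75.3 and 44 in that order. With Xenome RUNX2 stood at 411 and COL1A1 at 3384, and ALPL, a defining marker, was at 0.103. COL1A2 stood at 45, 264 and 222 and SPARC at 72, 142 and 142 in the same order of pipelines. COL3A1, another of the 10, stood at 43.9 in the Xenome column, 389 in that of XenofilteR and 84.1 in that of Kallisto. The summed level of the 10 markers was 3968 in the Xenome column, 5769 in that of XenofilteR and 3313 in that of Kallisto. Their part in the levels of the 8 genes was not tested. In bulk libraries, fewer cells of a type and less RNA per cell cannot be told apart.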

How the data were processed

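The members and gene lists were chosen with earlier results of these data known. The authors sorted reads by species in 3 ways. Xenome was run before HISAT2 alignment to GRCh38, XenofilteR was run after HISAT2 alignment to both GRCh38 and GRCm38, and featureCounts followed each. Kallisto used human and mouse GENCODE transcripts joined. The versions and the annotation release are not given in the sources used here. The authors deposited, per pipeline, 1 mean per gene of counts scaled by DESeq2 size factors, taken across the libraries of both groups, and only these 3 columns were used. The other 15 value columns hold the authors' own comparison of the co-culture with C4-2B alone (fold change, standard error, statistic, p-value and adjusted p-value) and were not used. The table has 41734 rows, of which 21 repeat a gene and were dropped. KLK2 was matched by its gene ID.

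The values are means over libraries, not counts, so the count test of the written design, which assumed counts per library, was not run. Levels were divided by the canonical transcript length of GENCODE release 44 on GRCh38. Pipeline ratios were compared with protein-coding genes whose level was at least 4603, the Xenome level of TMPRSS2, in both pipelines. The value of 1 read was taken from low Kallisto levels that at least 3 genes share and whose double also occurs. This rule is the last of 3 tried: the first 2 failed, on the simulation or on the Kallisto values, and both the rule and the simulated reads were adjusted with those values known. With steps drawn at random it recovered all 6 in 50 of 50 simulated tables of 20000 genes, which is no independent support for the steps in the data. Shared sequence was counted in GENCODE release 44 (human) and release M21 (mouse) transcripts. Promoters came from RefSeq on GRCh38.p14. All members were named, and other listed genes where a result turned on them. Some genes are not reported here. The alternatives tried were XenofilteR or Kallisto in place of Xenome and, added once the data had been seen, the length of all annotated exons joined. The tools were python 3.11.15, numpy 2.4.6, pandas 2.3.3, biopython 1.88, scipy 1.17.1 and matplotlib 3.10.9.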

Additional observations from a re-analysis of the deposited data

How the results depend on the processing

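Levels are given with Xenome, and a level was taken as moved where it lay outside 1.96 counting errors of the Xenome level. This is a measure of size and not a test, since the pipelines share their reads and the errors assume equal levels in all libraries. By it 19.6% of 2206 comparably abundant protein-coding genes moved with XenofilteR and 59.6% of 2193 with Kallisto, against 2 and 4 of the 8 members, a share added once the data had been seen. With XenofilteR 6 of the 8 levels stayed within that range, and FOLH1 (39022) and KLK4 (6036) moved. With Kallisto KLK4, TMPRSS2, SLC45A3 and STEAP2 stayed within it, and FOLH1 (47752), KLK3 (44909), KLK2 (7258) and FKBP5 (14031) moved. The ratio of FKBP5 was near the middle of all these genes, with 45.5% of them lower. The cause was not tested. With the length of all annotated exons in place of the canonical transcript, the places per kilobase of 6 genes were the same, KLK2 and SLC45A3 changed places (SLC45A3 at place 6 and KLK2 at place 7), and the level of KLK3 went from 34862 to 11002 per kilobase and that of FOLH1 from 9164 to 7060 with Xenome. The background of the pipeline ratios decides whether KLK3 and KLK2 lie outside its central 95%. The comparison of the co-culture with C4-2B alone was not run, nor were its alternatives (DESeq2, no filter, leaving out a replicate), because the values used are means over the libraries of both groups. No paired analysis was possible because no value of a single library was used.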

Other observations

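In the kallikrein cluster, 2 genes outside the members differed between pipelines by a far larger fold than the members did. They were singled out after their values were seen. Their Xenome levels lie at the floor, and by the step rule 1 read added up to 1.54 to a Kallisto mean, so the size of these folds is not established. In level FOLH1, at 37664 with Xenome and 47752 with Kallisto, differed more. KLK10 had a level of 0.147 with Xenome and with XenofilteR and of 44.2 with Kallisto. KLK7 had 0.166 with Xenome, 0.0627 with XenofilteR and 14.3 with Kallisto. KLK10 shared 6.17% and KLK7 4.04% of their 31-base sequences with other human genes, and 0.0531% and 0.04% with mouse transcripts. Among relatives of the other members, TMPRSS3 had 1.49 with Xenome and 12.6 with Kallisto, TMPRSS4 had 50.8 and 183, and STEAP4 had 63.2 and 139. TMPRSS3 shared 1.75%, TMPRSS4 2.25% and STEAP4 3.93% of their sequences with other human genes. The other relatives differed less by fold. Xenome and Kallisto gave 13510 and 14115 for STEAP1, which shared 34.5%, 25637 and 26908 for FKBP4 and 1611 and 1762 for STEAP3. UGT2B15 and UGT2B17, close copies of each other that inactivate androgens, had 1367 and 766 with Xenome and 2063 and 1205 with Kallisto, and UGT2B15 shared 36.1% of its 31-base sequences with UGT2B17.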
